A study of Mus musculus with 4 samples.

Results

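The genes described here are transcriptional readouts and negative regulators of ERK signalling that were chosen by name: Dusp4, Dusp5, Dusp6, Spry1, Spry2, Spry4, Spred1, Spred2, Etv4 and Etv5. A gene was counted as measured when at least 1 noncontrol probe on the array carried its symbol. By this rule 9 of the 10 genes were measured, by 16 of 41174 probes, out of 27745 gene names on the array. No probe carried the symbol Dusp5, so that its expression is not analysed here. The probe sequences were not used here, so the probes are given by their names and positions.

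The samples were mouse embryonic fibroblasts (MEFs), mesenchymal cells grown from embryos, of strain C57BL/6J. WT denotes cells labelled Lats2+/+ and KO denotes cells labelled Lats2-/-, which lack by label the kinase LATS2 of the Hippo pathway. The Hippo pathway restrains growth when cells touch, and the comparison of densities addresses contact inhibition. Low density cells were cultured for 48 h and were subconfluent, and high density cells were cultured for 3 to 5 days, all in DMEM with 10% inactivated bovine serum and antibiotics. Both genotypes had the same medium, and density and time in culture cannot be told apart. Each genotype was measured on 2 two-colour arrays that compared high with low density with the dyes exchanged, which gave 8 channels and 2 values per condition. The labels name 1 pair of cultures per genotype, so no test across cultures was possible and the spread given below is the spread between the dye-swapped arrays. The Lats2-deficient cells came from an earlier study of the same group, and the number of embryos behind these arrays was not given in the sources used here.

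Growth factor receptors activate RAS, RAF, MEK and then ERK, the MAP kinase that enters the nucleus and switches on transcription. Among the earliest and most direct ERK targets are genes whose products switch the pathway off again: dual-specificity phosphatases (DUSP) remove the activating phosphates from MAP kinases, and Sprouty (SPRY) and SPRED proteins block the step from the receptor to RAF. ETV4 and ETV5 are ETS-family transcription factors of the PEA3 group that are induced by the same pathway, so that the transcripts of this group are widely used to gauge ERK activity in fibroblasts and tumour cells.

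Promoter sequence was available for 7 of the 10 genes, in 8 windows, from RefSeq on build GRCm38.p6. The windows of Dusp6, the member with the most matches to the motif below, and of Spry2, a member with none, are printed as examples of the range of these windows. Each window holds the 250 bases before the annotated start, 5′ to 3′ on the strand of the gene, at chr10:99262981-99263230 on the plus strand for Dusp6 and at chr14:105896820-105897069 on the minus strand for Spry2. Capitals mark matches to CGGAA, a core of many ETS-factor sites, on either strand.
Dusp6: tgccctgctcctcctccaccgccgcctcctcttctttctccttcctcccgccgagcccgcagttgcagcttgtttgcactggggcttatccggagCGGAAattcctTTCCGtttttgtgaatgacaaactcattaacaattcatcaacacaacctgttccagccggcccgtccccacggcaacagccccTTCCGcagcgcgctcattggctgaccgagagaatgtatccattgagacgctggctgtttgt
Spry2: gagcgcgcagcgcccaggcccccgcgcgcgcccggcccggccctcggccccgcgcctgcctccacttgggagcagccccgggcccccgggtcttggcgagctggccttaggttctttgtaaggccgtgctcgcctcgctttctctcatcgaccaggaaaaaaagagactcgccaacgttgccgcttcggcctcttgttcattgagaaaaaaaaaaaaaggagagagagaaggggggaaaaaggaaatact
The Dusp6 window held 3 matches and the Spry2 window held none. These windows were picked with the density effects of both genes known, so that their contrast bears on no relation between matches and expression, which was not tested. CGGAA was found in 4 of the 8 member windows, which also included 2 matches in Spred2 and 1 each in Spred1 and Dusp5, and in 25.2% of 32851 mouse promoter windows of this length. The cyclic AMP response element TGACGTCA and the AP-1 letters TGANTCA were in none of the member windows and in 1.55% and 6.75% of all windows. The CArG box, the site of serum response factor, was found in 1 member window, that of Dusp5, and in 1.47% of all windows. A match of letters is a description of the sequence and was not tested for binding.

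Because the comparison of genotypes depends on the labels, the targeted gene was examined first. The array held 4 probes for Lats2. At the probe on which Lats2 gave its strongest signal, the log2 signal in WT cells was 11.47 and 11.46 at low density and 10.31 and 10.37 at high density, and in KO cells it was 12.90 and 12.76 at low density and 11.83 and 11.83 at high density. The cells labelled KO were thus higher, by 1.36 at low and 1.49 at high density on the log2 scale. Of the other 3 Lats2 probes, 2 were also higher in the cells labelled KO at both densities, and 1, A_52_P425064, was lower, by -0.61 and -1.26. Which part of the gene was deleted was not given in the sources used here, so that these probes do not check the labels. The study examined LATS2 protein in its MEFs by western blotting, which was not analysed here, and WT and KO below mean the labelled genotypes. Between 52.5% and 67.5% of probes were well above background in a channel. The WT arrays shared 1 slide and the KO arrays lay on 2 others scanned on different days, so that slide and genotype cannot be told apart. All 11 fibroblast markers were well above background in all 8 channels. Between densities 7 of them differed 2-fold or more in WT, 5 higher and 2 lower at high density. In KO 8 differed, 7 higher and 1 lower. Between genotypes 4 differed at low density, 2 higher and 2 lower in KO, and 6 at high density, 4 higher and 2 lower. The shares over all genes were 15.3% and 10.9% between densities, and 15.5% and 14.3% between genotypes, in the same order. The summed linear signal of the fibroblast markers in WT was 424068 to 488235 at low and 538304 to 579898 at high density. In KO it was 448379 to 457029 at low and 806794 to 1068450 at high density. Of 8 macrophage markers 2 to 3 were well above background, with Ptprc, Adgre1, Itgam and Fcgr1 at background throughout, and their summed signal was 606 to 611 at low and 686 to 703 at high density in WT, and 1648 to 1916 at low and 4418 to 5487 at high density in KO, so that it was higher in KO and, within KO, higher at high density. Lyz2 had a log2 signal of 6.11 to 7.50 in WT and of 10.17 to 12.25 in KO channels. Of 8 endothelial markers 0 to 1, and of 8 epithelial markers 1 to 2, were well above background, with sums of 461 to 577 and 558 to 872 over all channels. The neural and glial markers summed to 32037 to 32819 at low and 12865 to 14883 at high density in WT, and to 10623 to 11107 at low and 19684 to 20026 at high density in KO, so that they were lower at high density in WT and higher at high density in KO, with Sox2 and Gfap at background and Nes lower in KO by -6.16 at low density. The part of these marker differences in the comparisons below was not tested.

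Calls were made at the brightest probe of a gene and required a mean difference of 1 or more on the log2 scale (2-fold) whose direction was shared by the 2 arrays. In WT cells 3 of the 9 measured genes were called between densities. Dusp4 and Etv4 fell and Spry2 rose with density. In bulk RNA, fewer cells of a type and less RNA per cell cannot be told apart. Over all genes 15.3% of 14879 tested were called, 9.3% higher and 5.97% lower at high density. In KO cells 2 of 8 tested genes were called, Dusp4 and Etv4, which both fell; over all genes 10.9% of 15442 were called, 7.01% higher and 3.85% lower. Etv5 was left out in KO because it was well above background on only 1 of 2 arrays at each density. The members went both ways, from -1.86 to 1.43 in WT and from -1.53 to 0.80 in KO. Their median density effect was -0.14 over 9 genes in WT and -0.47 over 8 genes in KO, without Etv5, so that the 2 medians are not over the same genes. Over all genes tested the medians were 0.06 and 0.06.

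**Figure D1:**
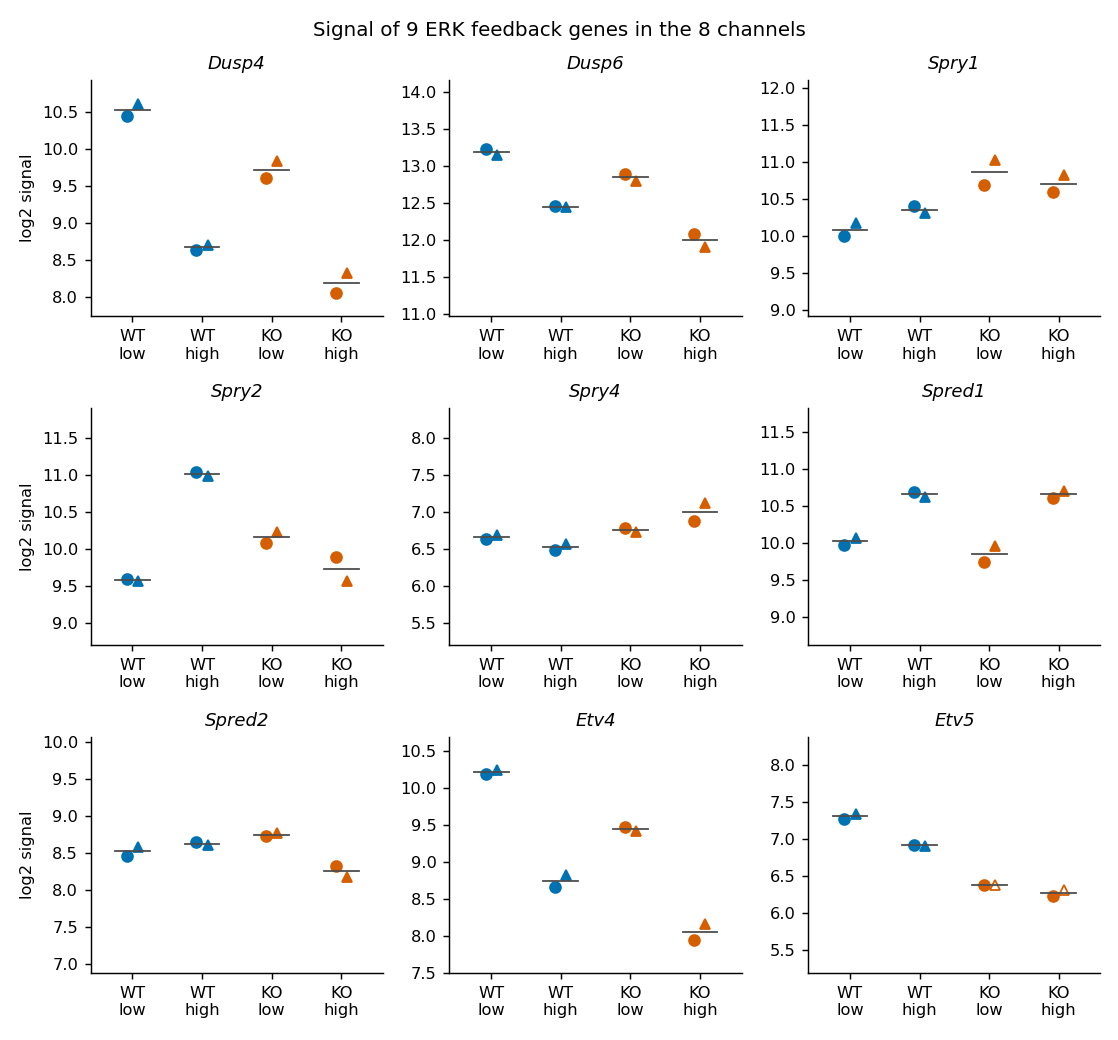
Log2 signal (y axis, a span of 3.2 in every panel) of the brightest probe of each of the 9 measured genes in WT (blue) and KO (orange) cells at low and high density. Circles are replicate 1 and triangles the dye-swapped replicate 2, open symbols were not well above background, and bars are the mean of 2 channels. Dusp4, Dusp6 and Etv4 step down from WT low through KO low and WT high to KO high, while Spry2 is highest in WT at high density.

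Dusp4, a nuclear phosphatase of ERK and of the stress-activated MAP kinases, showed the largest drop with density among the members. At probe A_51_P347333 (AK012530, chr8:36290269-36290328 on mm8) its log2 signal was 10.44 and 10.62 in WT at low density, 8.64 and 8.70 in WT at high density, 9.62 and 9.84 in KO at low density, and 8.06 and 8.33 in KO at high density. All 4 conditions were separate, with both high density pairs below both low density pairs. The density effect was -1.86 in WT, a 3.62-fold decrease (-1.80 and -1.91 on the 2 arrays), and -1.53 in KO, a 2.89-fold decrease (-1.56 and -1.50). The second Dusp4 probe, A_51_P518051 (NM_176933), which lies 2761 bases upstream, gave the same direction and called both genotypes, at -1.86 in WT and -1.87 in KO.

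Dusp6, the cytoplasmic phosphatase that acts selectively on ERK, had log2 signals of 13.23 and 13.15 in WT at low density, 12.45 and 12.45 in WT at high density, 12.90 and 12.80 in KO at low density, and 12.09 and 11.90 in KO at high density (A_51_P502614, NM_026268, chr10:98697039-98697098). High density was below low density on every array, and the pairs did not overlap. Its density effects of -0.74 in WT (-0.78 and -0.70) and -0.85 in KO (-0.81 and -0.89) stayed short of 2-fold, at 1.67-fold and 1.80-fold, so that Dusp6 was not called.

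Etv4, a PEA3-group transcription factor, also fell in both genotypes. Its log2 signal was 10.19 and 10.24 in WT at low density, 8.66 and 8.82 in WT at high density, 9.47 and 9.42 in KO at low density, and 7.94 and 8.15 in KO at high density (A_51_P230382, NM_008815, chr11:101586219-101586278). The 4 pairs were again separate, in the same order as those of Dusp4 and Dusp6. Etv4 fell by 1.48 with density in WT (2.78-fold; -1.53 and -1.42) and by 1.39 in KO (2.63-fold; -1.52 and -1.26). Etv5, the close relative of Etv4, was much nearer to background. At A_52_P631015 (NM_023794) its log2 signal was 7.27 and 7.33 in WT at low density, 6.91 and 6.90 in WT at high density, 6.38 and 6.38 in KO at low density, and 6.22 and 6.31 in KO at high density. Its density effect in WT was -0.39 (-0.36 and -0.43), and -0.99 with the scanner software's own processed signals, to which no offset is added, and the second Etv5 probe gave -0.19.

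The step from WT low through KO low and WT high to KO high, with no overlap between neighbouring pairs of channels, was shared by Dusp4, Dusp6 and Etv4 at their brightest probes. The second Dusp4 probe did not have it: there KO low was above WT low and KO high above WT high by mean, and the genotypes overlapped at both densities. This order was picked after the values were seen. It held for 3 of the 8 member genes that were well above background in all 8 channels, and for 3.65% of the 12942 genes that met the same condition. In the other pathway lists described below it held for Fosl1 and Myc, Dusp10 and Hbegf, which were likewise noticed after their values were seen. With median centring in place of loess the order held for Etv4 alone, and without scaling between arrays for Dusp4 and Etv4.

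**Figure D2:**
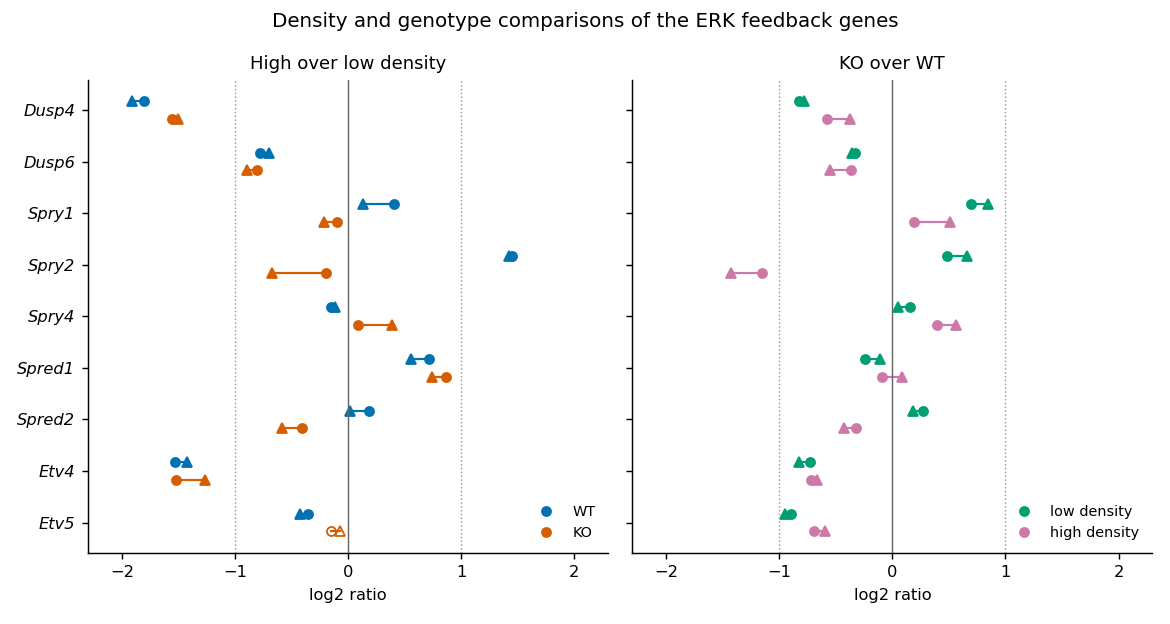
Log2 ratios (x axes) of high over low density in WT and KO (left) and of KO over WT at low and high density (right) for the 9 measured genes. Circles and triangles are the 2 dye orientations joined by a line, open symbols were not tested, and dotted lines mark a 2-fold difference. Dusp4 and Etv4 lie beyond the line on the left in both genotypes, and Spry2 lies beyond it at 1.43 in WT and at -1.29 for KO over WT at high density.

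The Sprouty genes did not follow this order. At the brightest Spry2 probe, A_52_P368532, which was designed on the EST BG961926 (chr14:104777767-104777826), the log2 signal was 9.59 and 9.57 in WT at low density, 11.04 and 10.98 in WT at high density, 10.08 and 10.23 in KO at low density, and 9.88 and 9.56 in KO at high density. WT cells at high density stood above the other 3 conditions, and KO at high density overlapped WT at low density. The density effect was 1.43 in WT, a 2.70-fold rise (1.45 and 1.42), and -0.43 in KO (-0.20 and -0.67). Spry2 was the only one of 8 tested members whose density effects differed by 2-fold or more between genotypes, with a KO minus WT difference of -1.87 (-1.64 and -2.09); over all genes 9.51% of 14167 were called, 4.98% below 0 and 4.53% above.

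The second Spry2 probe, A_51_P445153, was designed on the RefSeq transcript NM_011897 and lies 516 bases upstream. Its log2 signal was 7.08 and 7.00 in WT at low density, 7.20 and 7.10 in WT at high density, 7.97 and 8.16 in KO at low density, and 7.67 and 7.81 in KO at high density. All KO channels were above all WT channels at this probe, and the WT pairs lay within 0.20 of each other. Its density effects were 0.11 in WT and -0.32 in KO. The probes thus had the same signs but differed in size, and the rise in WT was seen at the EST probe and not at the RefSeq probe. With the mean of both probes the WT effect was 0.77 and was no longer called, whereas the difference between genotypes was -1.15 and was still called.

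Spry1 had log2 signals of 10.00 and 10.18 in WT at low density, 10.41 and 10.31 in WT at high density, 10.70 and 11.04 in KO at low density, and 10.60 and 10.82 in KO at high density (A_51_P490136, chr3:37835821-37835880). KO channels were higher than WT channels throughout, and the KO densities overlapped. The density effect was 0.27 in WT (0.41 and 0.13) and -0.16 in KO (-0.10 and -0.21). Spry4 was dim. Of its 2 probes, A_51_P250422 was not well above background in any channel, and A_52_P204311 gave log2 signals of 6.48 to 6.68 in WT and 6.73 to 7.13 in KO, with density effects of -0.14 and 0.24. With the processed signals these were -0.59 and 0.43, and their difference of 1.01 was called.

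Spred1, whose product holds neurofibromin at the membrane and so restrains RAS, was the one gene with higher signal at high density in both genotypes. Its log2 signal was 9.98 and 10.07 in WT at low density, 10.70 and 10.62 in WT at high density, 9.74 and 9.97 in KO at low density, and 10.61 and 10.71 in KO at high density (A_51_P119857, AK017680, chr2:116873555-116873614). The densities were separate in both genotypes, and the genotypes overlapped at high density. The effects of 0.63 in WT (0.72 and 0.55) and 0.80 in KO (0.87 and 0.74) did not reach 2-fold. They were not shared by the other 2 Spred1 probes, which target NM_033524 and lie 4794 and more bases upstream: A_52_P637689 gave -0.13 in WT and -0.07 in KO, and A_51_P422996 gave -0.14 in KO and was not tested in WT. Spred2 had density effects of 0.10 in WT (0.18 and 0.02) and -0.50 in KO (-0.41 and -0.59) at A_51_P234185, and of -0.33 and -0.58 at A_52_P452697. The sign of the WT effect of Spred2 turned to below 0 with median centring and with the mean of both probes (-0.11).

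**Figure D3:**
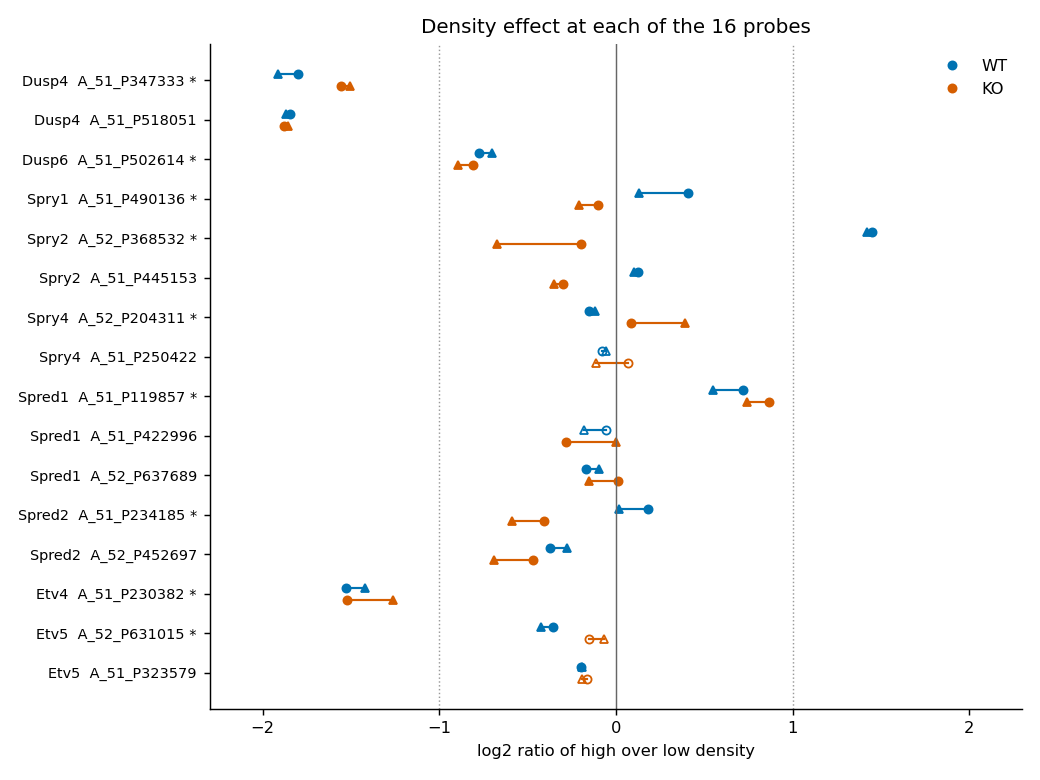
Log2 ratio of high over low density (x axis) at each of the 16 probes in WT (blue) and KO (orange); an asterisk marks the brightest probe of a gene, circles and triangles are the 2 arrays, and open symbols were not tested. The 2 Dusp4 probes lie together between -1.91 and -1.50, whereas the probes of Spry2 differ in size and those of Spred1 in sign.

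Between genotypes at low density none of the 9 measured genes was called at its brightest probe, beside 15.5% of 15252 genes in all, 7.21% higher and 8.28% lower in KO. At their brightest probes Dusp4 gave -0.80 (-0.83 and -0.78), Spry1 0.78 (0.70 and 0.85) and Etv4 -0.77 (-0.73 and -0.82). Etv5 gave -0.92 (-0.89 and -0.95), but in KO at low density it was well above background on 1 of 2 arrays, so that the size of its difference is uncertain, and with the processed signals it was -2.59 and called. The second Dusp4 probe did not share the lower signal in KO, at 0.09. One probe that did not represent its gene was called, the RefSeq probe of Spry2, which was higher in KO by 1.02 (0.89 and 1.15).

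At high density 1 of 9 genes was called between genotypes. Spry2 was lower in KO by -1.29 (-1.16 and -1.43, a 2.45-fold difference) at the EST probe, whereas its RefSeq probe gave 0.59 in the opposite direction and the mean of both probes was -0.35. Over all genes 14.3% of 15617 were called, 6.65% higher and 7.65% lower in KO. At their brightest probes Etv4 gave -0.69, Etv5 -0.64, Dusp4 -0.48 and Dusp6 -0.46, and all 4 were negative in both dyes. The second Dusp4 probe gave 0.08 (-0.0059 and 0.17). Spry1 gave 0.35. The dim Spry4 gave 0.48 and the dim Etv5 -0.64 with the offset of 50, and with the processed signals they gave 1.36 and -2.07 and were called. The median genotype difference of the members was -0.17 at low and -0.46 at high density, beside 0.03 and 0.03 over all genes. The members went both ways, and Spred1 and Spred2 had no settled direction at high density. Spred1 gave -0.17 at low density and -0.0014 at high density, where its dyes differed in sign (-0.088 and 0.085). Spred2 gave 0.22 at low and -0.37 at high density at A_51_P234185, and 0.67 and 0.41 at A_52_P452697.

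The rest of the pathway was examined through lists of its other genes. Among 18 other genes that ERK is known to induce, 8 of 17 tested were called with density in WT, 5 of them lower and 3 higher, and 7 of 16 in KO, 4 lower and 3 higher, beside 15.3% and 10.9% of all genes. Phlda1, a pleckstrin-homology protein induced by growth factors, had log2 signals of 15.08 and 14.89 in WT at low density and 13.91 and 13.75 at high density, and of 12.13 and 12.00 in KO at low density and 9.70 and 9.64 at high density. It fell by 1.16 with density in WT and by 2.40 in KO. Epha2, an ephrin receptor, fell by 2.45 in KO and gave -0.91 in WT. Egr2, an immediate-early zinc finger factor, moved in opposite directions, at -1.02 in WT and 1.96 in KO. Errfi1, a feedback inhibitor of the EGF receptor, had density effects of 0.19 in WT and 0.21 in KO and was lower in KO, by -2.81 at low and -2.79 at high density. In this list 9 of 17 genes were called between genotypes at low density, 3 higher and 6 lower in KO. At high density 9 of 17 were called, 2 higher and 7 lower in KO. Over all genes 15.5% and 14.3% were called at the 2 densities. Phlda1 differed most between genotypes at high density, at -4.16, or 17.9-fold.

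Among the 7 other MAP kinase phosphatases, 3 of 6 tested were called in WT and 2 of 7 in KO, all of them lower at high density, beside 5.97% and 3.85% of all genes called lower. Dusp1, the immediate-early phosphatase of the nucleus, fell by 1.78 in WT and by 2.06 in KO. Dusp10 fell by 1.08 in KO and gave -0.92 in WT, and Dusp8 fell by 1.03 in WT and gave -0.86 in KO; both prefer the stress-activated kinases. Dusp2, an inducible nuclear phosphatase, fell by 2.46 in WT and gave -0.14 in KO, and it was lower in KO by -4.12 at low and -1.81 at high density. The list median was -0.97 over 6 genes in WT and -0.43 over 7 genes in KO, so that the 2 medians are not over the same genes.

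The cascade runs from adaptors and RAS to the kinases and their nuclear factors. Of 30 genes from adaptor to nuclear factor, 28 were tested. At the brightest probes none was called with density in WT and 1 in KO, beside 15.3% and 10.9% of all genes. It was Ets1, an ETS-family factor, which fell by 1.76 and gave -0.98 in WT. Some probes that did not represent their gene were called with density. Among them Nras, named after its values were seen, gave -1.14 in WT and -1.15 in KO at A_52_P649296. The brightest Nras probe gave -0.21 and -0.66. Ets2 was lower in KO by -1.29 and -1.30 at the 2 densities, and at high density Mapk3, which encodes ERK1, was lower by -1.01. The list median lay between -0.14 and 0.05 in these 4 comparisons.

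Of 31 upstream ligands and receptors, 8 of 25 tested were called in WT, 7 of them higher at high density, and 6 of 26 in KO, 5 of them higher, beside 9.3% and 7.01% of all genes called higher. Igf1 rose by 4.26 in WT and by 2.17 in KO, and Igf2 by 2.84 and 2.22. Pdgfra, the receptor for PDGF that marks mesenchymal cells, rose by 3.03 and 1.69 and was higher in KO by 4.44 at low and 3.10 at high density. Fgf7, a fibroblast growth factor that acts on epithelium, was lower in KO by -4.45 and -3.18. Hbegf, named after its values were seen because it was the only ligand or receptor called lower at high density in WT and in KO, fell by 2.47 and 1.38.

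**Figure D4:**
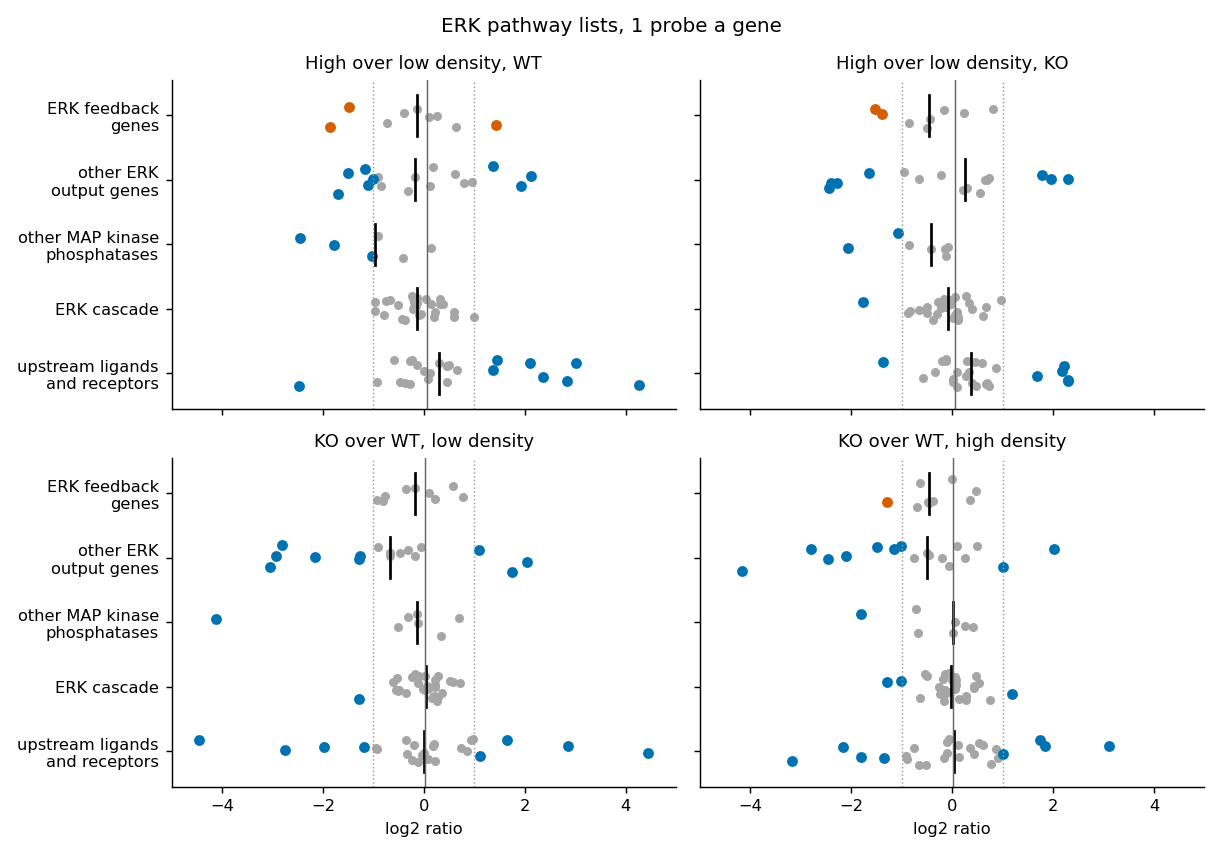
Log2 ratio (x axes) of each tested gene of the 5 ERK pathway lists in the 4 comparisons, 1 probe a gene. Coloured points were called (orange for the feedback genes, blue for the other lists), grey points were not, black bars are list medians, the thin line is the median of all genes and dotted lines mark 2-fold. Between genotypes 0 and 1 of 9 feedback genes and 9 and 9 of 17 other ERK output genes were coloured, at low and high density.

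The genes whose 4 condition means were most like those of Dusp4, the member with the largest range, were found by the smallest root mean square difference of centred log2 signals over 12941 other genes well above background in all 8 channels. They were Pdlim5, a PDZ and LIM domain protein of the actin cytoskeleton, at 0.026, Cspg4, the NG2 proteoglycan, at 0.076, and 9030611O19Rik at 0.11. Their density effects were -1.92, -1.89 and -1.62 in WT and -1.50, -1.44 and -1.43 in KO. This likeness rests on 4 conditions at the brightest Dusp4 probe and is a description. That probe gave KO minus WT differences of -0.80 at low and -0.48 at high density. The second Dusp4 probe did not share them, at 0.09 and 0.08.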

How the data were processed

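Expression was measured on 4 Agilent whole mouse genome arrays with 2 colours from 500 ng of total RNA per sample. Per the submitters' processing notes, spots were quantified with Agilent Feature Extraction 10.5.1.1, and the deposited intensity columns hold mean signals and median local backgrounds per spot and dye. Probe positions are those of build mm8 in the files. The deposited value table holds log10 ratios of high over low density that equal the scanner ratios, with the sign turned on the dye-swapped arrays, within 0.00499, and its column medians are 0.

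Background was removed from the intensities with normexp (offset 50), and they were normalized by loess within arrays, with control and flagged spots at weight 0, and by Aquantile between arrays, with limma 3.58.1 in R 4.3.3. Spots of a probe were averaged, and flagged spots left out. Log2 ratios computed from the deposited intensities compress small signals because of the offset. Each array gave a ratio of high over low density. Genotypes were compared within a dye. For density, a probe had to be well above background at either density on each array of the pair, at the same density, and for genotype in each dye of at least 1 genotype. A gene was represented by its brightest probe over the 8 channels. It was called at 2-fold or more with the same sign in both values, and the calls are calls of size without a p-value. The methods' test was not run, since the labels name 1 pair of cultures per genotype. The SD between both values averaged 0.143 (WT density), 0.206 (KO density), 0.194 (difference), 0.159 (genotype, low) and 0.210 (genotype, high density), as a root mean square over all probes tested. The precision is limited by the number of arrays.

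All members and every probe were described. From each other list at most the 4 genes with the largest called density or genotype effect were named, with further names marked as chosen after their values were seen. One gene that this rule would name is not reported here. The members and lists were chosen with earlier results of these data known. The calling code was tested on simulated data. Alternatives were other background corrections, normalizations, filters, probe choices and thresholds, single arrays and the deposited value table.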

Additional observations from a re-analysis of the deposited data

Results flagged for a closer look

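Among the feedback gene probes and the genes named from the other pathway lists, and not among all probes, the density effects of 8 probes took opposite signs in WT and KO on both arrays of each genotype. How often this occurs over all probes is not given here, so the count does not show whether opposite signs are unusual. The difference was not tested for any of the 8 probes. Among the feedback genes these were Spry2 at both probes, with KO minus WT differences of -1.87 at A_52_P368532 and -0.44 at A_51_P445153, Spred2 at A_51_P234185 (-0.60), Spry1 (-0.42) and Spry4 at A_52_P204311 (0.37). The WT effect of Spred2 was 0.10 (0.18 and 0.02) and turned to below 0 in 2 of 10 alternatives. It was -0.33 at its other probe, which was below 0 in both genotypes. Apart from the Spry2 probe A_52_P368532, these differences were below 2-fold. Dusp4, Dusp6 and Etv4 had the same sign in all 4 arrays. Of the other genes named from the pathway, Egr2 (2.97), Fgf7 (1.27) and Mapk3 (-0.45) showed such opposite signs.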

How the results depend on the processing

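All 7 calls of feedback genes over the 5 comparisons kept their direction in every alternative, and 5 of them were called in each, Dusp4 and Etv4 with density in both genotypes and Spry2 for the difference between genotypes. Spry2 lost its calls in WT and between genotypes at high density with the mean of all probes, which left 0 genes called at high density. With the processed signals 2 feedback genes were called for the difference, 1 at low and 3 at high density, the additions being Spry4 and the dim Etv5; an offset of 0 gave 1 at low and 2 at high density, and the deposited value table gave 2 for the difference. Without scaling between arrays Spry1 was called at low density, which made 1, and with median centring Dusp6 was also called in KO. At 1.4-fold 5 feedback genes were called in WT, 5 in KO, 2 for the difference, 5 at low and 3 at high density. Each array or dye alone gave the same feedback calls as both. The order of conditions held for 1 gene with median centring and for 2 without scaling between arrays. All alternatives were applied to the order after its values were seen. The cause of these changes was not tested.

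Over all genes the counts called were, in the order WT, KO, difference, low and high density, 3949, 3217, 2258, 4189 and 3949 with processed signals and 6112, 5633, 4431, 6448 and 6134 at 1.4-fold, beside 2273, 1678, 1347, 2362 and 2234. The value table gave 3944, 3211 and 2256 for the first 3. An offset of 0 gave 2632 in KO, 3592 at low and 3400 at high density. No paired analysis was possible because the results come from no test and the replicate numbers mark the dye orientation. Signal over background limits Spry4 and Etv5.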
